A study of Mus musculus with 7 samples.

Results

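The Fc receptor and Fc receptor-like genes were followed in macrophages of the healing mouse sciatic nerve. They were chosen by gene symbol, and comprised 8 of the 23361 genes quantified: Fcgr1, Fcgr3 and Fcgr4, which encode activating receptors for IgG, Fcgr2b, which encodes the inhibitory one, Fcer1g, which encodes the signalling chain the activating receptors share, Fcgrt, which encodes the heavy chain of the neonatal Fc receptor, and the Fc receptor-like genes Fcrl5 and Fcrls. In wild-type BALB/cJ mice, an inbred strain, the left sciatic nerve had been cut and repaired at once inside a conduit. Macrophages were sorted from the regenerative bridge that formed in it, 5, 14 or 28 days later, as lineage-negative cells carrying F4/80, CD14, CD11b and CD16/32. RNASeq libraries were available from 3 samples at day 5, 2 at day 14 and 2 at day 28. No uninjured nerve was among them, and every group had the same injury, repair and sort. The comparison of days asks how the macrophages' gene expression changed over the course of the immune response to the injury.

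Fc receptors bind the constant part of antibodies and so link antibody to the cells that engulf and destroy what it coats. The activating IgG receptors signal through an ITAM, a tyrosine motif of the Fcer1g chain that Src family kinases phosphorylate and the kinase Syk then binds, and lead to phagocytosis and cytokine release. The inhibitory receptor carries an ITIM instead, which recruits phosphatases that oppose this signal. In injured peripheral nerve, antibody bound to myelin debris is known to promote its removal by macrophages through these receptors.

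The sort itself used 2 of these genes. The CD16/32 antibody recognizes the proteins of Fcgr3 and Fcgr2b, so every sorted cell had been selected for carrying at least one of them on its surface, and the levels of these transcripts describe selected cells. Libraries held 18027190 to 35247116 fragments assigned to genes. All 6 macrophage markers were detected in every library, with a summed level of 13049 to 20358 FPKM. FPKM gives fragments per length of transcript and library size, a level that can be compared between genes. Most of this sum was Lyz2, at 10675 to 18377 FPKM. Emr1 was at 470, 393 and 365 FPKM at day 5 and 195 and 209 at day 28. Cd68 and Itgam were also below every day 5 library at day 28, while Lyz2 was above. For Csf1r and Mertk the libraries of these days overlapped. B and plasma cell markers summed to 4.63 to 11.2 FPKM, of which Cd79b gave 4.38 to 10.3, while Mzb1 was at 0 in every library. The neutrophil markers summed to 242 to 279 FPKM at day 5, 500.2 to 522 at day 14 and 105 to 254 at day 28, nearly all of it from S100a8 and S100a9, with Elane at 0 throughout. In sorted populations, fewer cells of a type and less RNA per cell cannot be told apart. The labels do not say whether a library came from 1 mouse or a pool, so the p-values measure only the spread between these libraries, which may be technical.

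The genes lie in a few groups in the genome (GRCm38, GENCODE). Fcgr2b (chr1:170958617-170976547, minus strand), Fcgr4 (chr1:171018920-171029761, plus strand), Fcgr3 (chr1:171051174-171064935, minus strand) and Fcer1g (chr1:171229572-171234365, minus strand) follow each other with gaps of 42.4, 21.4 and 164.6 kb. Fcrls (chr3:87250758-87263738, minus strand) and Fcrl5 (chr3:87435773-87500678, plus strand) are 172.0 kb apart, and Fcgr1 (chr3:96282909-96293969, minus strand) lies further along the same chromosome. Fcgrt is on chromosome 7 (chr7:45092990-45103851, minus strand). Antisense genes overlap Fcgr2b and Fcgrt, and since use of strand in counting is not stated, reads from a gene and its antisense partner cannot be told apart. Of the 75-base stretches in the coding transcripts of Fcgr3, 5.78% are also found in Fcgr2b, and 2.48% of those of Fcgr2b in Fcgr3, so part of the signal of these receptors could be split between them. The transcripts of Fcgr1, Fcgr4, Fcer1g, Fcgrt, Fcrl5 and Fcrls shared no such stretch with another gene.

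Promoter sequence is shown for the 3 genes that changed most and for Fcgr3, the neighbour of Fcgr4 whose level stayed nearest to that of day 5. Interferon gamma, which acts on genes through GAS elements, is a known inducer of Fcgr1, and PU.1, an ETS family factor made from Spi1, is a known regulator of myeloid Fc receptor genes. Each line gives the 110 bases before the RefSeq transcription start (GRCm38.p6), with the GAS letters TTCNNNGAA, the ETS letters GGAAGT or GAGGAA and the letters of the interferon-stimulated response element (ISRE: GAAA, any pair of bases, GAAA) in capitals, on either strand. The RefSeq start used for Fcgr3 lies inside the GENCODE gene (chr1:171051174-171064935), so its line is not the sequence before that gene's end. Another RefSeq window of Fcgr3 is not shown.
Fcgr1, chr3:96293970-96294079, minus strand: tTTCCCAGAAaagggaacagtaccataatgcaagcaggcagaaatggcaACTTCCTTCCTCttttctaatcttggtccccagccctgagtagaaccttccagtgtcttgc
Fcgr4, chr1:171018816-171018925, plus strand: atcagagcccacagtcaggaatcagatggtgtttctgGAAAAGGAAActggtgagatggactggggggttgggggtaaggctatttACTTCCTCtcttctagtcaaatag
Fcrl5, chr3:87435672-87435781, plus strand: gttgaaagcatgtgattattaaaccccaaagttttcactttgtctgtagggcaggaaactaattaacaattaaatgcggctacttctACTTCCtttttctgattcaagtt
Fcgr3, chr1:171059404-171059513, minus strand: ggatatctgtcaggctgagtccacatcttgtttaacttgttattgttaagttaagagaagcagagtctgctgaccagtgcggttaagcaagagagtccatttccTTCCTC

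The GAS letters were found in the 250 bases upstream of Fcgr1 and of none of the other members, 109 to 101 bases before the start, against 7.02% of all 32851 RefSeq promoter windows of that length. The ISRE letters were found upstream of Fcgr4 alone, 73 to 64 bases before the start, against 2.98% of all windows. GGAAGT was found upstream of Fcgr1, Fcgr2b, Fcgr4, Fcrl5 and Fcrls, against 19.7% of windows, and GAGGAA upstream of Fcgr1, Fcgr3, Fcgr4 and Fcrls, against 23.3%. In Fcgr4 these ETS matches overlap, reading ACTTCCTC on the strand shown. None of these letters occurred upstream of Fcer1g or Fcgrt. The matches describe the sequence and are not evidence of binding.

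Macrophage expression of the activating receptors split in the time course: Fcgr1 and Fcgr4 fell between days 5 and 28, while Fcgr3 did not pass the test. Fcgr1 encodes the high-affinity IgG receptor, CD64. Its level was 171, 160 and 154 FPKM in the day 5 libraries, 136 and 76.1 at day 14, and 51.4 and 45.0 at day 28. The days did not overlap, the day 14 libraries lay far apart, and the mean at day 28 was 29.8% of that at day 5. The edgeR log2 fold change from day 5 to day 28 was -1.73 ± 0.22 (SE, adjusted p = 0.0021). A gene was called where edgeR's p, adjusted over all 12858 genes tested, was under 0.05. Fcgr4 encodes a receptor of intermediate affinity for mouse IgG2a and IgG2b. It followed the same course, with 149, 109 and 111 FPKM at day 5, 93.3 and 63.1 at day 14, and 37.3 and 34.0 at day 28. Again no day overlapped another, and the day 28 mean was 29.0% of the day 5 mean, with a log2 fold change of -1.77 ± 0.20 (adjusted p = 0.0014, edgeR). The ratio of Fcgr1 to Fcgr4 stayed between 1.14 and 1.47 in all libraries.

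Fcgr3, which encodes the low-affinity activating receptor CD16, was at 232, 245 and 242 FPKM at day 5, 255 and 276 at day 14, and 268 and 249.7 at day 28. Every later library lay above those of day 5. The 7 libraries spanned a range of 1.19 times. The log2 fold change of Fcgr3 from day 5 to day 28 was 0.12, with a 95% interval of -0.12 to 0.37 (adjusted p = 0.481, edgeR). The interval leaves room for a small change in either direction but excludes one of the size seen in Fcgr1 or Fcgr4. The ratio of Fcgr3 to Fcgr4 was 1.56 to 2.24 in the day 5 libraries, 2.74 and 4.38 at day 14, and 7.18 and 7.35 at day 28, so that the genes, 21.4 kb apart, differed most in level at the last time point.

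**Figure D1:**
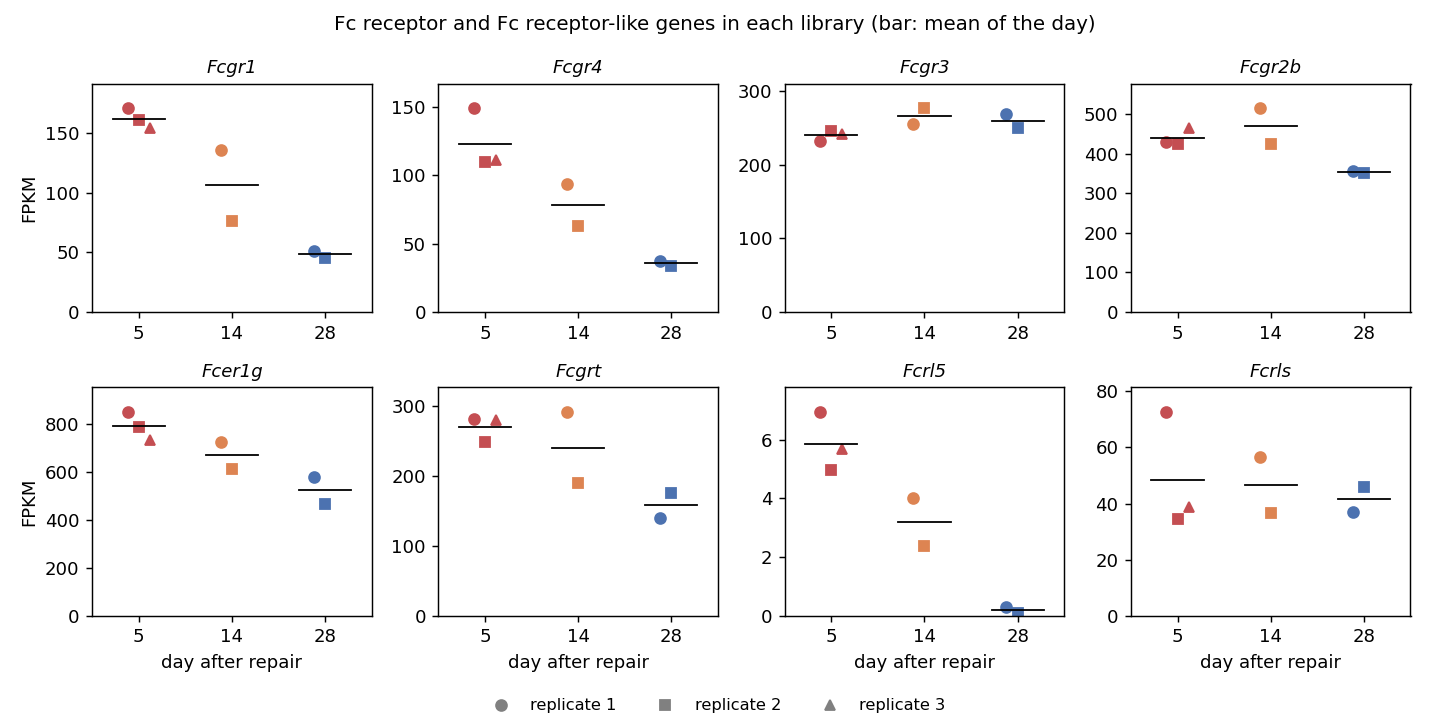
Level of each gene (FPKM, linear axis from 0, a scale of its own in each panel) against day after repair, with 1 point per library, the shape giving the replicate number and the bar the mean of the day. Fcgr1, Fcgr4, Fcer1g and Fcrl5 are lower at each later day without overlap, Fcgr3 stays between 232 and 276 FPKM, and the libraries of Fcrls overlap between all days.

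Fcgr2b encodes the inhibitory IgG receptor CD32B. It was the most abundant of the IgG receptor genes in every library, at 430.0, 425 and 466 FPKM at day 5, 515 and 424 at day 14, and 356 and 352 at day 28. The day 28 libraries lay below all others, at 80.3% of the day 5 mean, but the log2 fold change of -0.30 (95% interval -0.58 to -0.02) did not pass the adjustment over all genes (adjusted p = 0.132, edgeR).

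Together the 4 IgG receptor genes summed to 939 to 982 FPKM at day 5, 840 and 1000 at day 14, and 712 and 680 at day 28. Within this sum, Fcgr1 made up 15.8% to 17.4% at day 5, 13.6% and 9.06% at day 14, and 7.21% and 6.62% at day 28. Fcgr4 went from 11.4% to 15.2% at day 5 to 5.24% and 4.99% at day 28. Fcgr3 made up 23.7% to 26.1% at day 5, 25.5% and 32.9% at day 14, and 37.6% and 36.7% at day 28. The share of Fcgr2b was 43.8% to 47.9% at day 5, 51.6% and 50.5% at day 14, and 49.9% and 51.7% at day 28. The level of Fcgr2b relative to the sum of the activating receptors was 0.779 to 0.919 at day 5, 1.06 and 1.02 at day 14, and 0.997 and 1.07 at day 28. Each later library lay above every day 5 library in this ratio, whereas days 14 and 28 overlapped. These shares describe transcripts, not receptors on the surface, and no test was run on them.

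**Figure D2:**
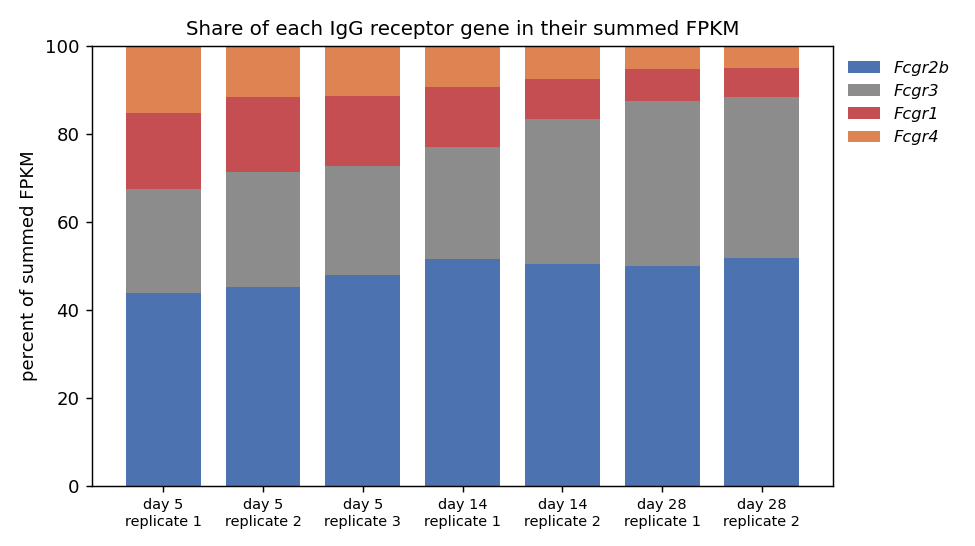
Share of each IgG receptor gene in the sum of the 4 genes' FPKM (percent, axis from 0 to 100), with 1 stacked bar per library. Fcgr1 and Fcgr4 together shrink toward day 28, Fcgr3 widens from 23.7% to 26.1% at day 5 to 36.7% and 37.6% at day 28, and Fcgr2b holds between 43.8% and 51.7%.

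Fcer1g was the most abundant of all 8 genes in every library. It was at 852, 791 and 735 FPKM at day 5, 727 and 615 at day 14, and 582 and 468 at day 28. The days did not overlap, and the day 28 mean was 66.2% of the day 5 mean (log2 fold change -0.58 ± 0.14, adjusted p = 0.0264, edgeR). This call was lost when any 1 of the 5 libraries of days 5 and 28 was left out (adjusted p of 0.0512 to 0.125). The summed level of Fcgr1, Fcgr3 and Fcgr4 was 0.613 to 0.703 of that of Fcer1g in every library. Mast cells and basophils use this chain in their IgE receptor, and their 6 markers summed to 0.248 to 0.874 FPKM at day 5, 0.189 and 0.197 at day 14, and 0.875 and 0.712 at day 28. Of these markers, 1, Kit, was over the floor of 3 fragments in each library. It had 106, 53 and 27 fragments at day 5 and 50 and 45 at day 28. Cpa3 and Tpsb2 had 0 fragments at day 5. At day 28 Cpa3 had 9 and 3 and Tpsb2 had 14 and 2, so the first day 28 library had 3 markers over the floor. Fcer1a and Mcpt8 were at 0 in all 7 libraries. The part of mast cells and basophils in the result was not tested.

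Fcgrt encodes the heavy chain of the neonatal Fc receptor, which binds IgG in acidic endosomes and protects it from degradation. Its level was 281, 248 and 280 FPKM at day 5, 292 and 190 at day 14, and 140 and 176 at day 28. Days 5 and 14 overlapped, and both day 28 libraries were below all others. The mean at day 28 was 58.6% of that at day 5 (log2 fold change -0.76 ± 0.19, adjusted p = 0.027, edgeR). Leaving out any 1 of the day 5 or day 28 libraries ended the call (adjusted p of 0.0591 to 0.189), as did a block for the replicate number (adjusted p = 0.103). B2m, the light chain without which this receptor does not reach the surface, was at 3698, 3416 and 3130 FPKM at day 5, 3481 and 2399 at day 14, and 2388 and 1901 at day 28. Its log2 fold change from day 5 to day 28 was -0.66 ± 0.18 (adjusted p = 0.0398, edgeR). This call too was lost without any 1 of the day 5 libraries (adjusted p of 0.0723 to 0.122, edgeR). It was also lost with limma on either FPKM scale (adjusted p = 0.0639). With the first or the second day 28 library left out, the edgeR value was -0.83 or -0.51. Endothelium also expresses Fcgrt, and 5 endothelial markers summed to 10.7 to 16.0 FPKM at day 5, 7.38 and 11.5 at day 14 and 4.60 and 7.05 at day 28, mostly from Kdr at the early days. Kdr was at 8.50 FPKM or more at day 5 and at 1.39 and 1.27 at day 28. Vwf went the other way, from 0.509, 1.02 and 0.502 FPKM at day 5 to 3.21 and 2.37 at day 28. Tek also rose, from at most 0.0184 FPKM at day 5 to 0.267 and 0.105 at day 28. For Cdh5 and Cldn5 the libraries of these days overlapped. The sort required F4/80, CD14, CD11b and CD16/32, and the antibody panel also held one against the endothelial protein CD31, in the detection channel of the excluded lineages. The part of endothelial cells in the result was not tested.

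Fcrl5, best known from B cells, showed the largest change of the 8 genes at the lowest level. It was at 6.94, 4.97 and 5.68 FPKM at day 5, 3.999 and 2.38 at day 14, and 0.289 and 0.0927 at day 28. No day overlapped another, and day 28 stood far below the rest. These values rested on 379, 229 and 279 fragments at day 5, 163 and 120 at day 14, and 25 and 4 at day 28. For every 1000000 fragments assigned to genes, the last library gave 0.221, with an exact 95% binomial interval of 0.0602 to 0.566, and the highest gave 14.5, with 13.1 to 16.0. Such intervals cover counting error only. The day 28 mean FPKM was 3.25% of the day 5 mean (log2 fold change -4.76 ± 0.43, adjusted p = 0.00065, edgeR). The size depended on how low values were treated, at -2.52 on the log2(FPKM + 1) scale of limma, and was -5.93 without the first day 28 library (edgeR). Counted from the lowest, it ranked 14 of the 12858 genes tested in this fold change. Of the B cell genes, Pax5 was at 0 in 6 of 7 libraries and Mzb1 in all. Cd79b, at 9.26, 6.92 and 6.41 FPKM at day 5, 10.3 and 6.03 at day 14, and 4.83 and 4.38 at day 28, was also lowest at the last day. Its part in the result was not tested.

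Fcrls, an Fc receptor-like gene known from mouse microglia and other macrophages, was at 72.7, 34.4 and 38.6 FPKM at day 5, 56.6 and 36.6 at day 14, and 37.2 and 45.8 at day 28. The libraries of all 3 days overlapped, with 1 day 5 library above all others. Its log2 fold change from day 5 to day 28 was -0.22, with a wide 95% interval of -0.91 to 0.47 (adjusted p = 0.672, edgeR). Without that library the value was 0.20. The 6 markers of microglia and resident macrophages summed to 22.0 to 24.4 FPKM at day 5. The sum was 38.1 and 45.7 at day 14 and 43.5 and 48.6 at day 28. In both day 28 libraries Gpr34, Olfml3, Tmem119 and Siglech lay above every day 5 library. P2ry12 went the other way, at 9.58, 10.4 and 10.6 FPKM at day 5 and 9.19 and 9.26 at day 28. Sall1 did not exceed 0.048 FPKM and was at 0 at day 28.

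In all, 5 of the 8 genes were called lower at day 28 than at day 5 and none higher. Among all 12858 genes tested, 15.2% were called at this threshold, 7.51% lower and 7.74% higher. The median log2 fold change was -0.67 over the 8 genes and 0.033 over all genes. The 8 genes were chosen with earlier results of these data known, so these contrasts describe the list and test nothing. A stricter rule asked, on top of the call, for a mean FPKM of at least 5 on one day and a 2-fold difference between means. It was met by 3.52% of all genes (2.01% of all genes in the lower direction). Fcrl5 was expressed enough to be tested through its day 5 and day 14 libraries. It reached a mean of 5 on day 5 alone (5.86 FPKM), so passing these levels is no support for its fall. With that limit, Fcgr1, Fcgr4 and Fcrl5 met the stricter rule. These 3 stayed called under each of the 16 alternatives to the processing, with adjusted p up to 0.0308 for Fcgr1.

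Between days 5 and 14, none of the 8 genes was called by edgeR at an adjusted p under 0.05, against 4.78% of all genes (2.84% higher and 1.94% lower). At an unadjusted p under 0.05, which 24% of all genes reached, there were 3, namely Fcgr1 (log2 fold change -0.60 ± 0.21, adjusted p = 0.123), Fcgr4 (-0.65 ± 0.19, adjusted p = 0.0815) and Fcrl5 (-0.87 ± 0.32, adjusted p = 0.141), and DESeq2 called 2 of them, Fcgr1 and Fcgr4, beside 10.7% of all genes. The result turned on the day 14 libraries, and leaving out either left 1 library at that day. Without the first, the edgeR log2 fold changes were -1.07 for Fcgr1, -0.95 for Fcgr4 and -1.28 for Fcrl5. Without the second, they were -0.25 for Fcgr1 and -0.39 for Fcgr4. For Fcrl5 the smallest fall with 1 library left out was -0.54. Fcgr2b, Fcgr3, Fcer1g, Fcgrt and Fcrls had log2 fold changes between -0.23 and 0.16, with adjusted p from 0.351 to 0.934 (edgeR).

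Between days 14 and 28 edgeR called 1 of the 8 genes, Fcrl5, against 0.0622% of all genes (0.0311% in each direction). Its log2 fold change was -3.89 ± 0.44 (adjusted p = 0.0344), but the call was lost without any 1 of the day 5 libraries (adjusted p of 0.0669 to 0.0766) and without the first day 28 library (adjusted p = 0.121). Fcgr1 and Fcgr4 had log2 fold changes of -1.13 ± 0.23 and -1.13 ± 0.21 (adjusted p of 0.1 and 0.0805, edgeR). Leaving out either day 14 library left 1 at that day. Without the second, the edgeR log2 fold changes were -1.48 for Fcgr1, -1.38 for Fcgr4 and -0.88 for Fcgrt. Without the first, they were -0.66 for Fcgr1 and -0.82 for Fcgr4. For Fcgrt the smallest fall with 1 library left out was -0.26. The second day 14 library held less than the first in FPKM for every member except Fcgr3. The 3 comparisons share libraries and are not independent of each other.

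**Figure D3:**
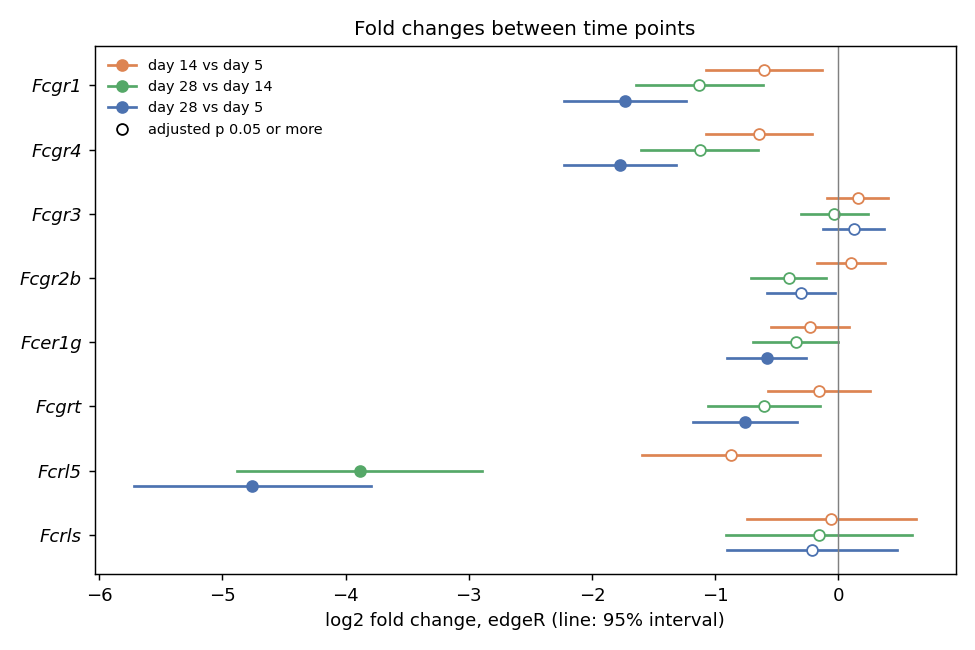
Log2 fold change of each gene (horizontal axis, edgeR) in the 3 comparisons, with lines for the 95% interval and filled points for an adjusted p under 0.05. For the day 28 against day 5 comparison, Fcrl5 lies at -4.76, Fcgr4 at -1.77 and Fcgr1 at -1.73, and the intervals of Fcgr3 and Fcrls span 0.

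The order of levels at day 5 was Fcer1g, Fcgr2b, Fcgrt, Fcgr3, Fcgr1, Fcgr4, Fcrls and Fcrl5 from highest to lowest in mean FPKM, with no overlap between the libraries of any neighbours. At day 14 Fcgr3 was ahead of Fcgrt, but their libraries overlapped, as did those of Fcgr1 and Fcgr4. At day 28 Fcgr3 lay above Fcgrt without overlap. There Fcrls, at 41.5 ± 6.1 FPKM (SD, n = 2), could not be told from Fcgr1, at 48.2 ± 4.5, nor from Fcgr4, at 35.6 ± 2.4.

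**Figure D4:**
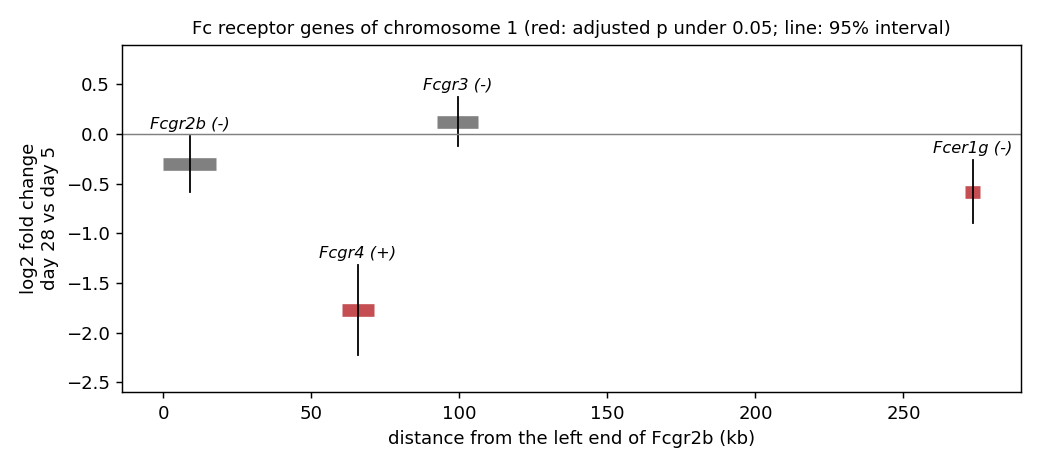
Position of the Fc receptor genes of chromosome 1 (kilobases from the left end of Fcgr2b, with strand) against their log2 fold change from day 5 to day 28 (edgeR), with vertical lines for the 95% interval and red for an adjusted p under 0.05. Fcgr4, at -1.77, lies between Fcgr2b, at -0.30, and Fcgr3, at 0.12.

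Genes that work with the receptors were taken from 7 lists holding 75 genes, of which 66 were expressed enough to be tested. The lists were also chosen with earlier results of these data known. Comparing day 28 with day 5, 10 of the 66 were called higher and 11 lower, with a median log2 fold change of -0.17, beside the 15.2% of all genes called. At day 14, 2 were called higher than at day 5 and 3 lower, beside the 4.78% of all genes called (2.84% higher and 1.94% lower). Between days 14 and 28 edgeR called none of the 66, and DESeq2 called 4, beside 2.9% of all genes. Most of these calls were fragile: all 21 calls of day 28 against day 5 kept their direction under every alternative, but 5 kept the call under each, namely Clec4n, Fyn, Myo10, Pak1 and Vav3. Fyn and Vav3 are named here after their values were seen. Among the genes named below, the replicate block ended the day 28 calls of Clec4d, Malt1, Cblb, Dok1 and Cebpa. It also ended the day 14 calls of Clec4n, Clec4d, Cblb and Myo10. Limma on either FPKM scale ended the day 14 calls of Cblb and Myo10.

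The activating signalling list had calls in both directions, with 5 of its 25 genes called higher at day 28 than at day 5 and 6 lower. Among all genes tested, 7.74% were called higher and 7.51% lower. Lyn, the Src family kinase known for phosphorylating receptor ITAMs and ITIMs, was at 136, 131 and 118 FPKM at day 5, 116 and 100.3 at day 14, and 83.0 and 82.4 at day 28 (log2 fold change from day 5 to 28 -0.62 ± 0.12, adjusted p = 0.0116, edgeR). Src rose in the same comparison, from 19.0 ± 7.6 (SD, n = 3) to 40.4 ± 0.37 FPKM (n = 2), with a log2 fold change of 1.10 ± 0.25 (adjusted p = 0.0214, edgeR). Fyn, another kinase of this family, rose by 0.64 ± 0.10 on the log2 scale (adjusted p = 0.0056, edgeR). Syk, the kinase that docks on the phosphorylated chain, went from 179 ± 24 to 145 ± 6.8 FPKM, which did not pass the test (log2 fold change -0.30 ± 0.18, adjusted p = 0.289, edgeR).

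Lcp2, which encodes the adaptor SLP-76 downstream of Syk, was at 129, 125 and 105 FPKM at day 5, 104 and 66.8 at day 14, and 62.6 and 64.9 at day 28 (log2 fold change from day 5 to 28 -0.90 ± 0.18, adjusted p = 0.0137, edgeR). Lat, an adaptor best known from T cells, rose from 0.300 ± 0.19 to 2.80 ± 0.045 FPKM, on 2, 9 and 9 fragments at day 5 and 113 and 55 at day 28 (log2 fold change 3.24 ± 0.75, adjusted p = 0.0219, edgeR). T cell markers summed to 0.247 to 0.370 FPKM at day 5, 1.38 and 1.05 at day 14, and 0.265 and 0.430 at day 28. Malt1, which acts with Card9 and Bcl10 in signalling to NF-kB, rose from 64.9 ± 17 to 114 ± 15 FPKM (log2 fold change 0.83 ± 0.21, adjusted p = 0.0277, edgeR). The calls of Lcp2, Lat, Malt1, Src and Lyn were each lost when either day 28 library was left out. They were also lost without the first day 5 library (Lcp2, Malt1 and Lat), the second (Lyn, Src and Lat) or the third (Src and Lat).

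Of the 12 inhibitory signalling genes, 1 was called higher and 1 lower between days 5 and 28, near the 7.74% and 7.51% of all genes. Dok1, an adaptor that restrains Ras signalling, rose from 28.1 ± 2.8 to 41.1 ± 0.061 FPKM (log2 fold change 0.56 ± 0.12, adjusted p = 0.0183, edgeR). Cblb, a ubiquitin ligase, fell from 9.89 ± 0.77 to 6.48 ± 1.0 FPKM (log2 fold change -0.60 ± 0.13, adjusted p = 0.0173, edgeR), and was already lower at day 14 (-0.57 ± 0.13, adjusted p = 0.0424, edgeR). The day 28 call of Dok1 was lost without the second or the third day 5 library or either of day 28, and that of Cblb without the first or the third day 5 library or the first of day 28. The day 14 call of Cblb was lost without any 1 of the day 5 libraries or the second of day 14. The phosphatases did not pass the test: Inpp5d, the SHIP1 enzyme recruited by the inhibitory IgG receptor, went from 68.7 ± 4.9 to 54.6 ± 7.4 FPKM (adjusted p = 0.124, edgeR), and Ptpn6, SHP-1, from 131 ± 10 to 123 ± 0.98 (adjusted p = 0.738, edgeR).

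Of the 3 other receptors that use Fcer1g and could be tested, 1 was called higher and 1 lower than at day 5, at day 14 and again at day 28. Of all genes, 2.84% were called higher and 1.94% lower at day 14, and 7.74% and 7.51% at day 28. Clec4n, Dectin-2, was at 83.5, 96.0 and 81.6 FPKM at day 5, 155 and 170.2 at day 14, and 179 and 138 at day 28. It was higher at day 14 (log2 fold change 0.91 ± 0.14, adjusted p = 0.016, edgeR) and at day 28 (0.88 ± 0.14, adjusted p = 0.0049, edgeR) than at day 5, the former call being lost without the first or the third day 5 library. Clec4d, a C-type lectin receptor of the same gene family, was lower on both days, by -0.64 ± 0.14 (adjusted p = 0.0366, edgeR) and -0.53 ± 0.14 (adjusted p = 0.0321, edgeR) on the log2 scale, calls lost at day 28 without any 1 of the day 5 or day 28 libraries (adjusted p of 0.0542 to 0.139) and at day 14 without any 1 of day 5 or the second of day 14. Clec4e, the C-type lectin Mincle, did not pass the test, with log2 fold changes of -0.70 ± 0.23 at day 14 (adjusted p = 0.105, edgeR) and -0.23 ± 0.22 at day 28 (adjusted p = 0.528, edgeR). Tyrobp, which encodes DAP12, another ITAM-bearing adaptor chain, was at 1148 ± 82 FPKM at day 5 and 1022 ± 28 at day 28 (log2 fold change -0.16 ± 0.11, adjusted p = 0.39, edgeR).

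In the list of phagocytic uptake, 2 of 13 genes were called higher and 1 lower between days 5 and 28, beside 7.74% and 7.51% of all genes. Myo10, an unconventional myosin of filopodia and phagocytic cups, was at 2.02, 2.86 and 1.69 FPKM at day 5, 4.38 and 5.36 at day 14, and 7.96 and 10.03 at day 28. It was higher at day 14 (log2 fold change 1.17 ± 0.21, adjusted p = 0.0219, edgeR) and at day 28 (2.05 ± 0.21, adjusted p = 0.00093, edgeR) than at day 5, the former call being lost without the first or the third day 5 library or the second of day 14. Pak1, a kinase that acts below Rac and Cdc42, rose from 2.97 ± 0.20 to 6.32 ± 0.25 FPKM (log2 fold change 1.10 ± 0.16, adjusted p = 0.0041, edgeR). Vasp, an actin assembly factor, fell from 211 ± 28 to 127 ± 5.8 FPKM (log2 fold change -0.72 ± 0.15, adjusted p = 0.0163, edgeR), a call lost without either day 28 library or the first or second of day 5.

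Among the transcription factors, Cebpa was higher, at 94.7 ± 1.1 FPKM on day 5 and 140.2 ± 38 on day 28 (log2 fold change 0.58 ± 0.16, adjusted p = 0.0426, edgeR). Its value was 0.27 without the second day 28 library. The call was lost without any 1 of the day 5 libraries, with limma on either FPKM scale and with the replicate block. Spi1 went from 444 ± 40 to 365 ± 50 FPKM (log2 fold change -0.27 ± 0.14, adjusted p = 0.205, edgeR). None of the 4 other immunoglobulin receptor genes tested was called by edgeR in any comparison, and the IgE receptor gene Fcer1a and Fcamr had no fragment in any library.

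**Figure D5:**
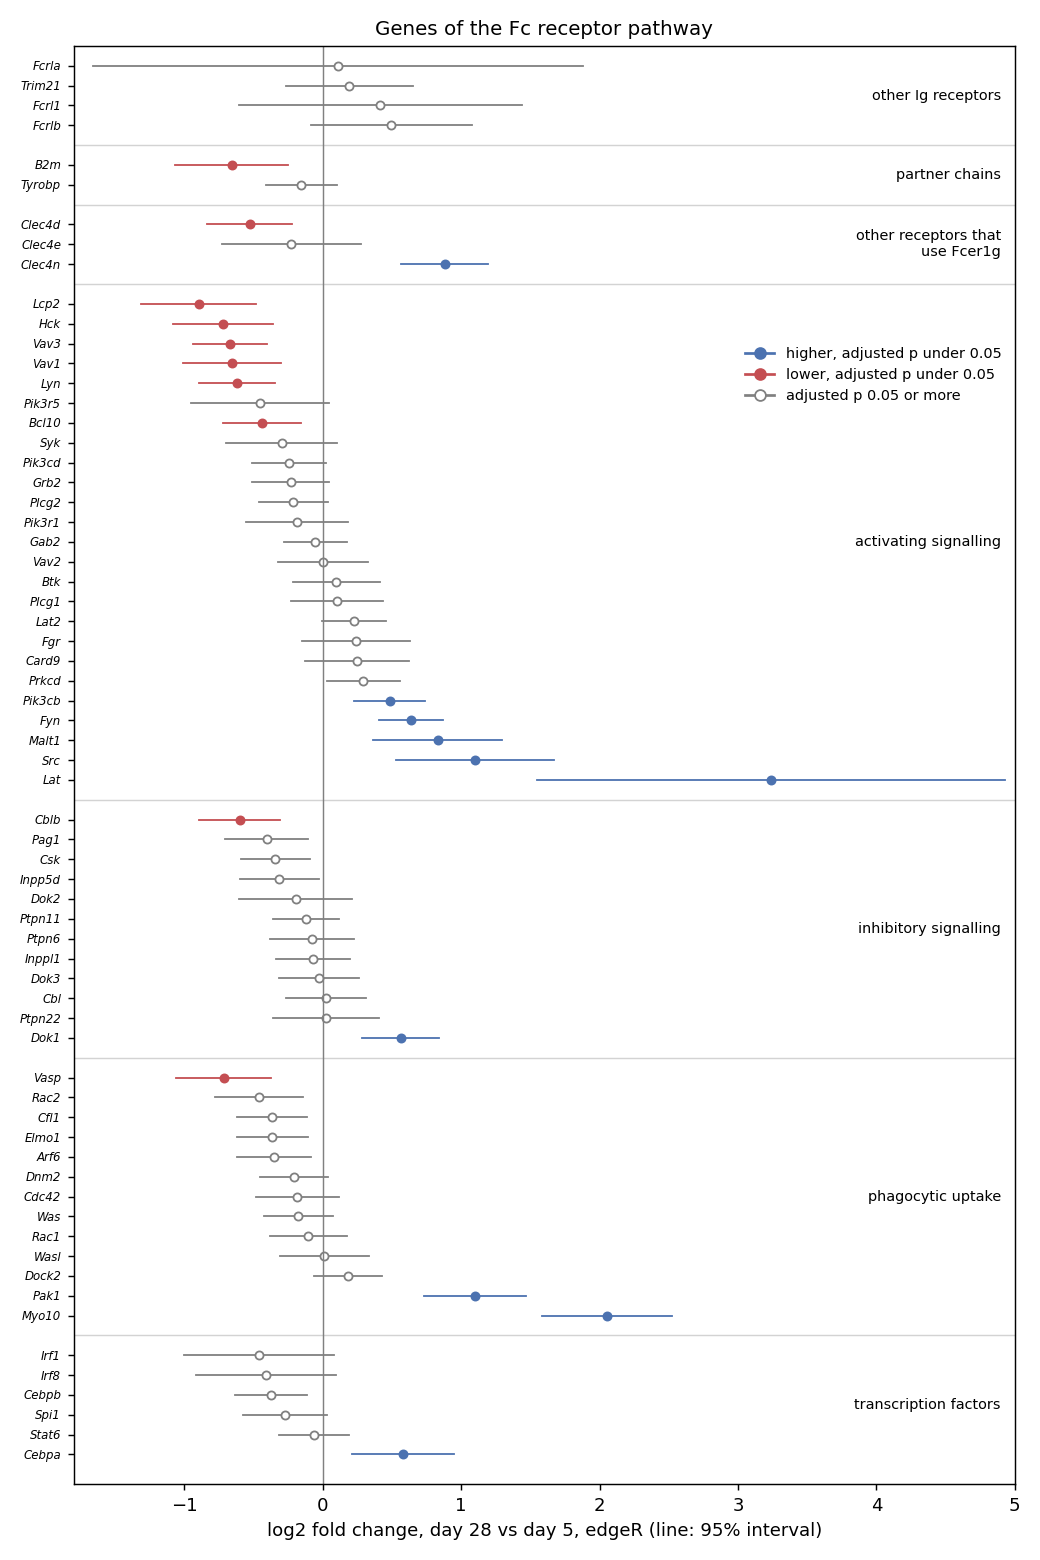
Log2 fold change from day 5 to day 28 (horizontal axis, edgeR, lines for the 95% interval) of the tested genes of the Fc receptor pathway, 1 not reported here left out, grouped by list, with filled blue points for genes called higher and filled red points for genes called lower. The called genes are spread over 6 of the 7 lists, with Lat at 3.24 and Myo10 at 2.05 farthest to the right and Lcp2 at -0.90 farthest to the left.

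The genes whose levels went most closely with those of a called member were found by Pearson correlation of log2(FPKM + 1) over the 7 libraries among 7549 genes. The libraries fall into 3 days, so these values mostly describe the order of the days, and they carry no test. For Fcgr1 they were Tmem9b (r = 0.996), Cfb, the complement factor B gene (0.995), and Fgl2 (0.994). For Fcgr4 they were Lamp1, a lysosomal membrane protein gene (0.997), Anapc5 (0.993) and Ly6a (0.991). For Fcrl5 they were Cfp, the gene of the complement regulator properdin (0.999), Tmem9b (0.990) and Dgcr2 (0.990). Cfp was at 656, 569 and 608 FPKM at day 5, 504 and 397 at day 14, and 231 and 226 at day 28, far above Fcrl5 in level. For Fcer1g they were Clec4a1 (0.994), Gm15987 (0.989) and BC064078 (0.986), and for Fcgrt they included P2rx4 (0.990) and H2-Q1 (0.989). A high r does not mean a change of like size. Tmem9b went from 44.6, 43.6 and 44.0 FPKM at day 5 to 36.9 and 35.6 at day 28. Ly6a went from 77.8, 46.8 and 55.1 FPKM to 3.25 and 1.41.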

How the data were processed

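Macrophages were sorted by FACS and polyA+ RNA was sequenced as single-end reads. Per the labels, reads were trimmed with cutadapt 1.8, mapped to mm10 with TopHat2 2.0.13 and quantified with Cuffdiff 2.2.1. The authors deposited expected counts (estimated fragments per gene and library before scaling) and FPKM values. Strand use and the sharing of reads between paralogs are not given in the sources used here. The deposited scaled signal, which is the fragment number times 1 factor per library, was used only for an alternative.

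Estimated fragments were rounded (1.01% of values were not whole) and compared by the quasi-likelihood F test of edgeR 4.0.16 (R 4.3.3), with TMM normalization and an expression filter by time point. The 7 libraries were fitted together, with p-values adjusted by Benjamini-Hochberg over the 12858 genes tested, and a gene counted as called where the adjusted p was under 0.05. All 8 members passed the filter, Fcrl5 through its day 5 and day 14 libraries. The floor for detection was 3 fragments. The test was tried on simulated data. Libraries of the same day differed by more than sampling noise.

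Alternatives were DESeq2 1.42.0, RLE and Cuffdiff size factors, no expression filter, limma 3.58.1 on log2 FPKM with a pseudocount of 1 or 0.1, fits on 2 time points, a replicate block and leaving out each library. A block that swaps the day 28 numbers was chosen after seeing the data.

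The members and lists were chosen with earlier results of these data known. Named pathway genes were at most 4 called genes per list, those with the largest fold change, plus Tyrobp, Syk, Lyn, Inpp5d, Ptpn6, B2m and Spi1, and for each called member the 3 most alike genes (mean FPKM 5 or more). Spi1 was listed under an older symbol. Some genes that the rule names are not reported here.

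Promoters came from RefSeq (GRCm38.p6), with all 8 members matched. Coordinates and 75-base windows came from GENCODE transcripts on GRCm38. Figures were drawn with matplotlib 3.10.9.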

Additional observations from a re-analysis of the deposited data

How the results depend on the processing

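Over the 8 members and 3 comparisons, 343 of 384 alternative values kept direction and side of the threshold, 19 lost the call, 14 gained it and 8 turned direction. The turned values, none of them called, were Fcgr3 between days 14 and 28 (0.028 without the second day 14 library, 0.01 without the second day 28 library, range -0.096 to 0.028 over the libraries left out), Fcgr2b between days 5 and 14 (-0.041 without the first day 14 library, range -0.041 to 0.23), Fcgrt between days 5 and 14 (0.12 without the second day 14 library, range -0.49 to 0.12), and Fcrls between days 5 and 14 (0.36 without the first day 5 library, 0.22 without the second day 14 library, range -0.39 to 0.36), between days 14 and 28 (0.18 without the first day 14 library, range -0.44 to 0.18) and between days 5 and 28 (0.20 without the first day 5 library, range -0.41 to 0.20). Of 384 values of named pathway genes, 301 kept the call or its absence and 83 lost it, and none turned.

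Members called between days 5 and 14 numbered 2 with DESeq2 and 2 without the expression filter, beside 10.7% and 8.26% of all genes. They numbered 0 without any 1 of the day 5 libraries, beside 0.407% to 0.83% of all genes. Between days 14 and 28 they numbered 3 with DESeq2 and 3 without the filter, beside 2.9% and 2.25% of all genes. They numbered 0 with the replicate block, limma on either scale, the 2 time points alone or 1 day 5 library left out. In those fits 0 of all genes were called. Between days 5 and 28 they numbered 3 without any 1 of the day 5 libraries, beside 6.42% to 7.57% of all genes. Pathway genes called between days 5 and 14 numbered 12 with DESeq2, 12 without the filter, 0 with the block, 2 with the swapped block, 2 and 3 with limma on log2(FPKM + 1) and log2(FPKM + 0.1), and 0 to 14 with 1 library left out. Between days 14 and 28 they numbered 4 with DESeq2, 4 without the filter and 0 to 6 with 1 library left out. Between days 5 and 28 they numbered 13 with the block and 6 to 27 with 1 library left out. Without the filter, the median prior degrees of freedom of the edgeR fit rose from 5.35 to 21.6. Where 1 library remained in a group, it was assumed to vary like the others.

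Over all genes, the fit called 614, 8 and 1960 genes (days 5 and 14, 14 and 28, 5 and 28). The replicate block, which leaves 2 residual degrees of freedom and not 4, called 6, 0 and 735, and the swapped pairing 357, 63 and 1579. The libraries share only a number: deviations of same-numbered libraries correlated at 0.24 between days 5 and 14, -0.15 between days 14 and 28 and -0.00096 between days 5 and 28. DESeq2 called 1308, 336 and 2402 genes and the unfiltered fit 1429, 390 and 2466, limma called 252 and 277 genes between days 5 and 14 and none between days 14 and 28 (edgeR 1570 genes at an unadjusted p under 0.05), and the fits on 2 time points 315, 0 and 2778. With 2 libraries at days 14 and 28, changes of the size seen in Fcgr2b were not resolved. The depth limits Fcrl5 at day 28, with 4 fragments in one library.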
